A study of Mus musculus with 16 samples.

Results

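The 10 genes described here encode the protein coat of lipid droplets and the core machinery that breaks down the fat inside them. They were the coat proteins Plin2, Plin3, Plin4 and Plin5, the droplet fusion proteins Cideb and Cidec, the triglyceride lipase Pnpla2, its coactivator Abhd5, and its inhibitors G0s2 and Hilpda. The members were found by gene symbol, each in 1 row of a table of 55450 genes, and all 10 reached the expression minimum of 1 CPM (counts scaled to library size) on average and were among the 11675 genes tested. They were measured by RNA sequencing in primary hepatocytes isolated by perfusion from the livers of wild-type mice and cultured overnight in medium with serum and an insulin-transferrin-selenium supplement. There were 4 treatments of 4 libraries each. Untreated cells received no addition, itaconate cells received sodium itaconate at 10 mM, lipid cells received a chemically defined lipid mixture at a 1:10 dilution, and lipid + itaconate cells received both. The mixture was listed as holding arachidonic acid at 2 µg/mL, linoleic, myristic, oleic, palmitic and stearic acid at 10 µg/mL each, and cholesterol at 0.22 mg/mL. The libraries of each treatment carry the letters A to D, and whether a letter is a separate mouse is not given in the sources used here, so p-values measure the spread between these samples, which may be technical. The mice of the study were male, 8 to 12 weeks old and on a C57BL/6J background.

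A lipid droplet is a core of triglyceride and cholesterol ester under a single layer of phospholipid, on which perilipins sit and regulate access of lipases. Plin2 is the main perilipin of hepatocytes and is known to be degraded when it is not bound to a droplet, while its transcript is known as a target of the fatty acid sensor PPAR alpha. Pnpla2, also called ATGL, removes the first fatty acid from a triglyceride, is activated by Abhd5 (CGI-58) and is inhibited by the small proteins G0s2 and Hilpda. The study asked how itaconate, a metabolite that activated macrophages make from an intermediate of the citric acid cycle, alters the handling of lipid by hepatocytes. The comparisons therefore were itaconate against no itaconate, without and with lipid, and lipid against no lipid, without and with itaconate.

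The libraries held 22346000 to 35512000 counts assigned to genes. Lipid + itaconate replicate B stood apart over all genes, with a chi-square per gene of 106 to 147 against the other 3 libraries of its treatment, where the 21 other pairs within a treatment were at 10.0 to 64.5. Values without it are given beside the comparisons that use it. All 10 hepatocyte markers tested, among them Alb and Hnf4a, were present, with a summed level of 36501 to 61056 CPM per library. Of 8 adipocyte markers Lipe and Fabp4 passed the expression minimum, Adipoq, Lep and Retn did not exceed 0.0729 CPM in any library, and the list summed to 7.24 to 10.7 CPM. Of 8 stellate cell markers 1 passed, Reln with a mean of 20.2 CPM, and the list summed to 15.7 to 24.8 CPM. Of 6 endothelial markers 5 passed, with sums of 11.2 to 22.5 CPM. All 8 macrophage markers passed, with sums of 182 to 291 CPM in untreated, 160 to 247 in itaconate, 232 to 330 in lipid and 216 to 321 in lipid + itaconate libraries, most of it Cd68 with a mean of 218 CPM. Of 6 cholangiocyte markers 2 passed, Sox9 and Spp1, and 1 was at 0 in every library. The sum of that list was 599 to 1169 CPM in untreated and 335 to 608 CPM in lipid libraries, most of it Spp1 with a mean of 529 CPM. Krt19, Krt7 and Epcam did not exceed 0.579 CPM in any library.

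The upstream sequences of 4 members are shown because Plin2, Plin4 and Pnpla2 had the largest decreases with lipid and G0s2 the largest increase. Each run is the 250 bases before the transcription start in RefSeq on assembly GRCm38.p6, the build of the deposited values, read 5′ to 3′ on the strand of the gene. Capitals mark letters that match 1 of the motifs searched, on either strand.
Plin2, chr4:86670060-86670309, minus strand: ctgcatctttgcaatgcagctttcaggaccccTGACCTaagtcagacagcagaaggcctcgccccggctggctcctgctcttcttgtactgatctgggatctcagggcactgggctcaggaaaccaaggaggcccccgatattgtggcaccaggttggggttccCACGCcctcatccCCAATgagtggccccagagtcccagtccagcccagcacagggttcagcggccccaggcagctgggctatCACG
Plin4, chr17:56109783-56110032, minus strand: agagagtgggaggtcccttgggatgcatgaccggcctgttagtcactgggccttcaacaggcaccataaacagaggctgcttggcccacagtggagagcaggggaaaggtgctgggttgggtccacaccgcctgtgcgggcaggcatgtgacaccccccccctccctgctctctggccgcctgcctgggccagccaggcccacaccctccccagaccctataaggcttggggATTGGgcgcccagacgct
Pnpla2, chr7:141454938-141455187, plus strand: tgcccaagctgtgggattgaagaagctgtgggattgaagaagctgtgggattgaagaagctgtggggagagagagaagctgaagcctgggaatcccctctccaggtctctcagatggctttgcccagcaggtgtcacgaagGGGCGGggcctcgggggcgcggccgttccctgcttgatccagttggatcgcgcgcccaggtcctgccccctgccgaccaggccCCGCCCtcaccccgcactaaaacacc
G0s2, chr1:193273189-193273438, minus strand: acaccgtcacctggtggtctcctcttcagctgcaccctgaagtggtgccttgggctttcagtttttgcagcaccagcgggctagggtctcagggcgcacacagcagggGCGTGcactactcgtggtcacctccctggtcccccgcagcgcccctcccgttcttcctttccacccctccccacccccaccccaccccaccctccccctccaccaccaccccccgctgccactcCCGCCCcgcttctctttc

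The TATA box was searched for by the letters TATAAA, the CCAAT box by those of its name, and the GC box by GGGCGG. The E-box was searched for as CACGTG. The core bound by hypoxia-inducible factors (HIF) was searched for as ACGTG and, with the other first base in common use, as GCGTG. The nuclear receptor core was AGGTCA. Also searched for were 2 repeats of that core in the same direction, with a spacer of 1 base (direct repeat 1, bound by PPAR alpha dimers) or of 4 bases (direct repeat 4, bound by LXR dimers). The search covered both strands from 250 bases before to 50 bases after each start, a window for which all 10 members had an entry, with 13 windows in all because Plin5, Cidec and Hilpda had a pair of starts each. An E-box holds an HIF core and a direct repeat holds the nuclear receptor core, so these matches overlap. CACGTG was found in the window of Plin2 alone, where it begins 4 bases before the start and runs across it, so that the printed run ends in its first 4 letters. It was found in 7.15% of all 32851 mouse windows of this length. The nuclear receptor core was in 4 of the 13 member windows, against 16.3% of all windows. It was present in Plin2, where it lies at -218 on the opposite strand as TGACCT, in both windows of Plin5 and in Abhd5. Neither direct repeat was found in any member window, and they were found in 0.0396% and 0.0152% of all windows. Exact repeats are this rare, so their absence says nothing about looser repeats or sites outside these windows. The CCAAT box was in 4 of the 13 member windows, against 37.4% of all windows. These belonged to the 4 perilipin genes and to no other member, and the other Plin5 window held no match. The HIF core and the GC box were each in 10 of the 13 member windows (7 and 8 members), against 43.8% and 35.7% of all windows. The paired windows of Plin5 and of Hilpda overlap on the genome. An HIF core of each pair and a GC box of Plin5 lie in the shared bases and were counted in both windows. The matches describe letters in these windows and are not evidence of binding.

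By genome position the 4 perilipins lie on 2 chromosomes. Plin2 is at chr4:86648386-86670060, and Plin4 (chr17:56100591-56109803) and Plin5 (chr17:56111601-56117596) are neighbours on the minus strand, with Plin3 at chr17:56277476-56292873. Pnpla2 is at chr7:141455198-141460743, Abhd5 at chr9:122351608-122381524, G0s2 at chr1:193272161-193273217 and Hilpda at chr6:29272488-29275446. Cidec is at chr6:113424634-113435760 and Cideb at chr14:55754050-55758458. Values are gene totals over all annotated exons. Exons of Cideb share 1136 bases with Nop9 on the opposite strand and those of Abhd5 share 950 bases with the antisense gene A730085K08Rik. The kit keeps strand, but the strand setting of the counting is not given in the sources used here, so the values of these 2 members are uncertain to that extent. Plin4 shares 17 exon bases with Hdgfl2.

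Levels between genes were compared as CPM per kilobase of annotated exon. In untreated hepatocytes Plin2 was the most abundant member at 339 ± 42.0 CPM per kilobase (SD, n = 4), 4.22-fold above Hilpda at 80.5 ± 11.1. Plin3 at 35.6 ± 2.16 and Cideb at 33.1 ± 1.58 CPM per kilobase overlapped between libraries and could not be ordered. Pnpla2 followed at 17.4 ± 1.2, above Abhd5 at 12.3 ± 1.03 CPM per kilobase in every library. Without division by exon length their order was reversed, at 52.5 CPM for Pnpla2 and 73.5 CPM for Abhd5. It therefore rests on lengths over all annotated exons. G0s2 at 3.83 ± 0.939, Plin5 at 3.57 ± 0.340, Plin4 at 2.94 ± 0.649 and Cidec at 2.58 ± 0.509 CPM per kilobase were the lowest, and neighbours among these 4 overlapped. In lipid libraries Plin2 remained first at 187 ± 19.4 CPM per kilobase, now 2.79-fold above Hilpda. Pnpla2 and Abhd5 overlapped there at 11.4 ± 1.22 and 11.1 ± 0.699, and Plin4 was last at 1.52 ± 0.461 CPM per kilobase, below every library of Plin5. The adipocyte coat genes Plin1 and Cidea, which are no members, were under the expression minimum with mean levels of 0.287 and 0.928 CPM.

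**Figure D1:**
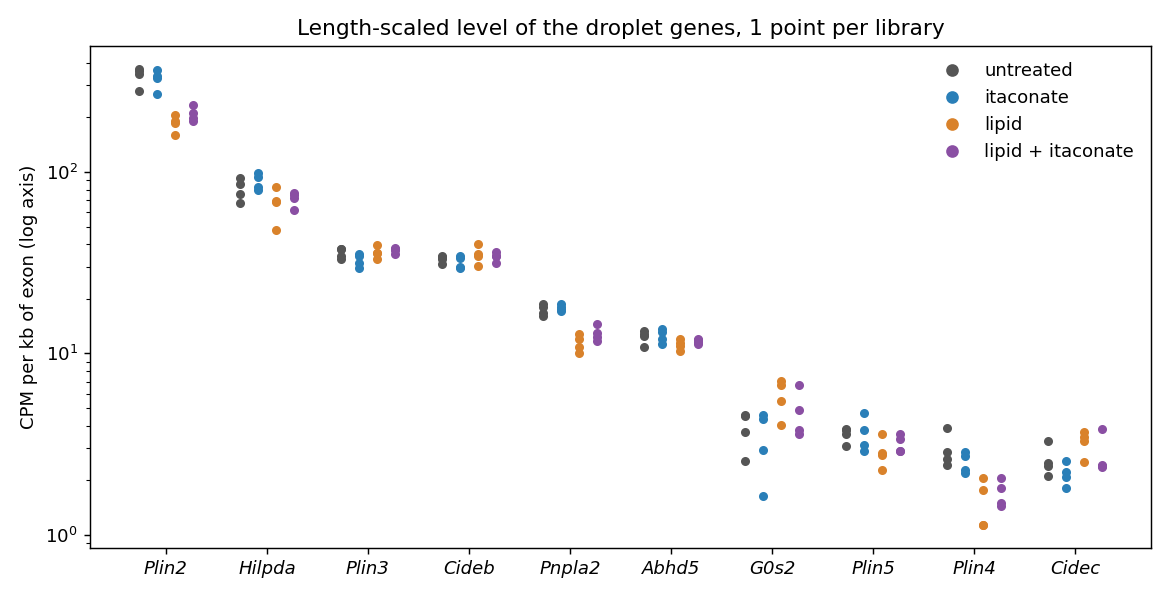
CPM per kilobase of exon on a log axis for each member, 1 point per library, coloured by treatment and ordered by the untreated mean. Plin2 stands above all other members in every treatment, and the group means of the 4 rarest members run from 1.52 for Plin4 to 5.82 for G0s2, both with lipid.

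Lipid treatment without itaconate lowered the main hepatocyte coat gene Plin2, its relative Plin4 and the lipase gene Pnpla2, by 34.4% to 48.8%, and raised G0s2, whose product inhibits that lipase. All these changes are on the scale of transcript share, and in bulk samples fewer cells of a type and less RNA per cell cannot be told apart. By edgeR's quasi-likelihood test with the replicate letter in the model and Benjamini-Hochberg adjustment over all genes, 8 of the 10 members passed an adjusted p of 0.05, 2 higher and 6 lower. Among all genes tested 47.5% passed in this comparison, 23.8% higher and 23.7% lower, so calls were common throughout. At least 1.5-fold changes were seen in 4 members, against 9.78% of all genes. The median log2 fold change of the members was -0.21 and that of all genes 0.0047.

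Plin2 was read at 976, 1222, 1302 and 1267 CPM in untreated replicates A to D and at 654, 728, 564 and 675 CPM in lipid replicates A to D. Every lipid library was below every untreated library. The log2 fold change was -0.85 (SE 0.083, edgeR adjusted p = 1.11e-06), a change of -44.7% with a 95% interval of -51.1% to -37.5%. It rests on 13934 or more counts per library.

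Plin4, a perilipin found mainly on small droplets of adipocytes and muscle, was read at 15.1, 22.4, 13.9 and 16.6 CPM in untreated and at 10.3, 11.8, 6.56 and 6.57 CPM in lipid replicates A to D. The groups did not overlap, and replicates C and D were the lowest with lipid. On the log2 scale Plin4 fell by 0.97 (SE 0.16, edgeR adjusted p = 0.000145).

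Plin5, the perilipin that ties droplets to mitochondria in oxidative tissue, was read at 7.95, 7.88, 6.42 and 7.55 CPM in untreated and at 5.92, 7.55, 4.74 and 5.73 CPM in lipid replicates A to D. It was lower with lipid in 4 of 4 letters, but the groups overlapped through lipid replicate B. The log2 fold change was -0.32 (SE 0.12, edgeR adjusted p = 0.0438), and it passed in 10 of 23 alternative settings. Plin3, a perilipin that moves between cytosol and new droplets, did not pass, with a mean of 135 ± 8.18 CPM in untreated and 137 ± 10.4 CPM in lipid libraries (SD, n = 4). Its 95% interval of the log2 difference ran from -0.07 to 0.10.

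Cidec (FSP27), which moves lipid between touching droplets and makes them large, was read at 3.93, 6.13, 4.45 and 4.63 CPM in untreated and at 4.70, 6.46, 6.84 and 6.10 CPM in lipid replicates A to D. Each lipid library was above its own letter's untreated library, while the groups overlapped. Cidec rose by 0.34 on the log2 scale (SE 0.13, edgeR adjusted p = 0.0390), and the call was lost without any of untreated replicates A, B, C or D or lipid replicates C or D. Without lipid replicate C, the highest, the log2 fold change was 0.22. Cideb, the liver's main member of that family, did not pass, at 49.3 ± 2.35 CPM without and 52.0 ± 6.14 CPM with lipid (SD, n = 4), a log2 difference of 0.07 with a 95% interval of -0.04 to 0.18.

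Pnpla2 was read at 50.7, 48.5, 56.3 and 54.5 CPM in untreated and at 36.5, 38.6, 30.4 and 32.6 CPM in lipid replicates A to D. The ranges were separate, with the highest lipid library below the lowest untreated library. The log2 fold change was -0.61 (SE 0.077, edgeR adjusted p = 1.36e-05), or -34.4%. Abhd5, the coactivator, was read at 64.8, 74.2, 76.0 and 79.0 CPM in untreated and at 61.3, 65.4, 67.7 and 71.2 CPM in lipid replicates A to D. It was lower in 4 of 4 letters by a small step, and the groups overlapped. Abhd5 fell by 0.15 on the log2 scale (SE 0.047, edgeR adjusted p = 0.0190), and the call was lost without untreated replicate C or D or lipid replicate B.

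G0s2 was read at 3.98, 3.92, 2.22 and 3.21 CPM in untreated and at 5.80, 6.16, 3.52 and 4.79 CPM in lipid replicates A to D. Replicate C was the lowest in both groups, so the groups overlapped, and the increase within each letter was similar, with log2 ratios of 0.54, 0.65, 0.66 and 0.58. G0s2 rose by 0.61 on the log2 scale (SE 0.17, edgeR adjusted p = 0.00758). It rests on 61 to 112 counts per untreated library and 87 to 164 per lipid library. Hilpda, the other inhibitor and a known target of both HIF and fatty acids, was read at 74.4, 102, 95.1 and 83.6 CPM in untreated and at 52.8, 76.1, 90.9 and 75.2 CPM in lipid replicates A to D. It was lower in 4 of 4 letters, with overlapping groups. The log2 fold change was -0.28 (SE 0.070, edgeR adjusted p = 0.00425), so the 2 inhibitor genes moved in opposite directions.

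Each member was also set against its partner within a library, per kilobase and without a test. The ratio of G0s2 to Pnpla2 was 0.272, 0.281, 0.137 and 0.204 in untreated and 0.552, 0.554, 0.401 and 0.509 in lipid replicates A to D, so the inhibitor transcript was higher relative to the lipase in every lipid library than in any untreated library. The ratio of Abhd5 to Pnpla2 was 0.648 to 0.776 in untreated and 0.852 to 1.13 in lipid libraries, again without overlap. The ratio of Hilpda to Pnpla2 overlapped, at 4.02 to 5.76 in untreated and 3.96 to 8.18 in lipid libraries. The ratio of Cidec to Plin2 was 0.00647 to 0.00949 in untreated and 0.0136 to 0.0230 in lipid libraries. For Plin5 to Plin2 it was 0.00829 to 0.0137 in untreated and 0.0141 to 0.0175 in lipid libraries. Pnpla2 and Plin2 were themselves separate between these groups, so ratios over them in part restate their fall.

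**Figure D2:**
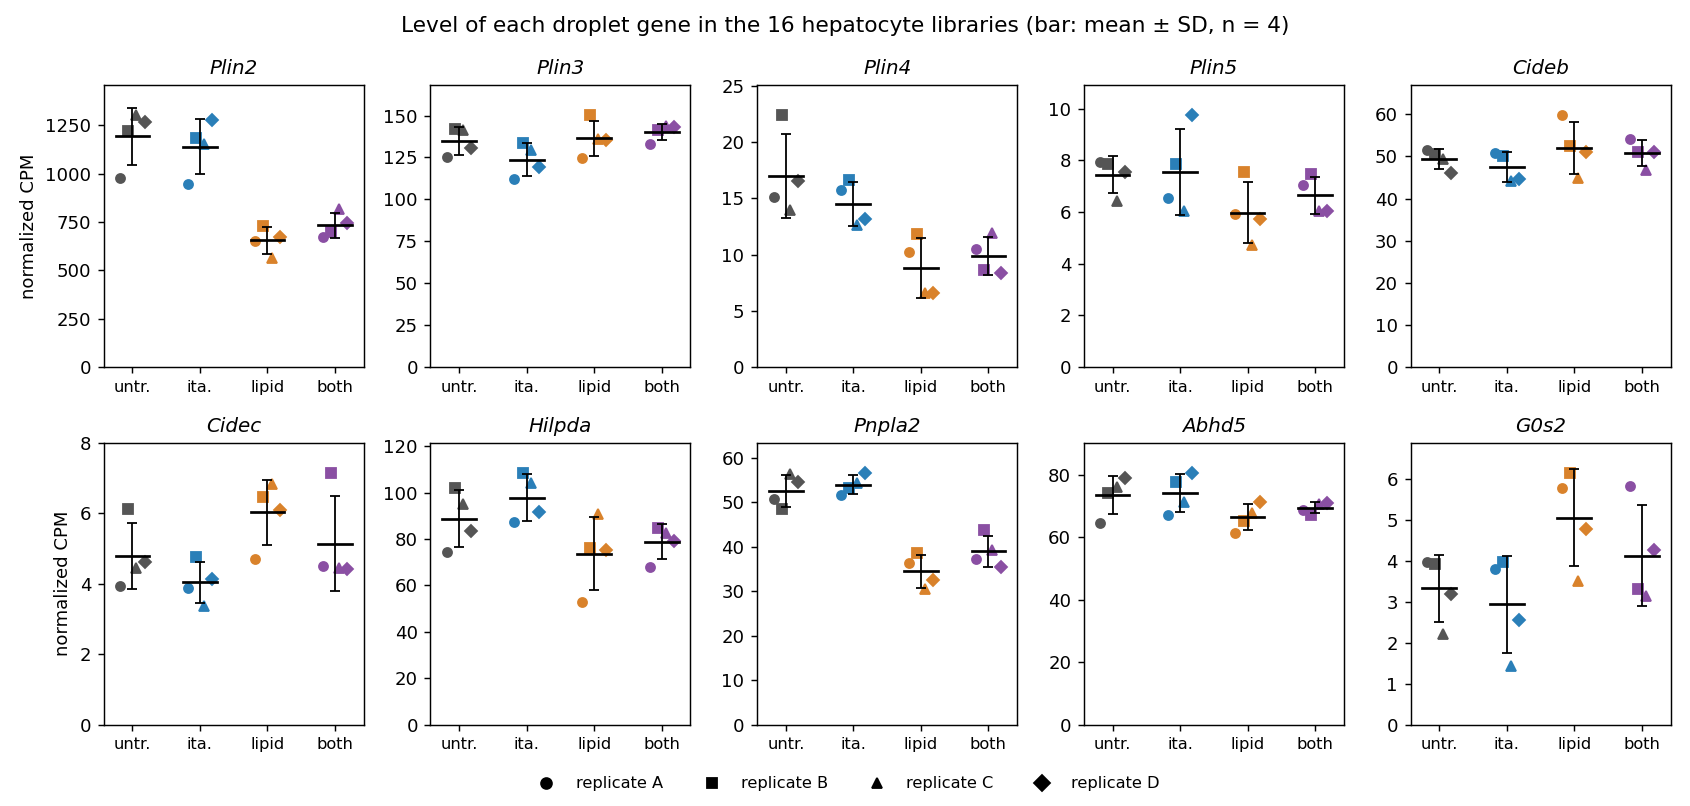
Normalized CPM of the 10 members by treatment (untreated, itaconate, lipid, both), with 1 symbol per replicate letter and bars for the mean ± SD (n = 4). Plin2, Plin4 and Pnpla2 show lipid libraries below all untreated libraries, while the points of Plin3 and Cideb overlap.

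Of the calls in this comparison, those of Plin2, Plin4 and Pnpla2 were the ones in which the 4 libraries of each group did not overlap, against 32.5% of all genes. In a model of treatment alone, with no term for the letter, these 3 still passed and Plin5, Cidec, Hilpda, Abhd5 and G0s2 were lost. Of the 8 macrophage markers 1 rose and 4 fell between these groups, while their sums, mostly Cd68, overlapped, and both cholangiocyte markers tested fell. Their part in the droplet results was not tested. Of the 10 hepatocyte markers 1 rose and 3 fell.

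In cells that also received itaconate, lipid again lowered Plin2, Plin4, Hilpda and Pnpla2 and raised Cidec and G0s2, and Plin3 rose as well. In all 7 members passed, 3 higher and 4 lower, against 47% of all genes (23.5% higher and 23.5% lower), and 1 member, Plin2, changed at least 1.5-fold, against 8.76%. These libraries are not those of the first lipid comparison. Plin2 was read at 945, 1186, 1152 and 1276 CPM in itaconate and at 671, 699, 819 and 743 CPM in lipid + itaconate replicates A to D. The groups were separate, and the log2 fold change was -0.63 (SE 0.083, edgeR adjusted p = 2.30e-05).

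Plin3 was read at 112, 134, 130 and 119 CPM in itaconate and at 133, 141, 144 and 143 CPM in lipid + itaconate replicates A to D. It was higher with lipid in 4 of 4 letters, although the lowest lipid + itaconate library lay just under the highest itaconate library. Plin3 rose by 0.19 on the log2 scale (SE 0.040, edgeR adjusted p = 0.00157), and it passed in all 23 alternative settings. The difference between this change and the one without itaconate was 0.17 on the log2 scale, with an adjusted p of 0.421 by edgeR, so it is not shown to differ.

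Plin4 was read at 15.7, 16.6, 12.6 and 13.2 CPM in itaconate and at 10.5, 8.65, 11.9 and 8.34 CPM in lipid + itaconate replicates A to D, with a log2 fold change of -0.54 (SE 0.16, edgeR adjusted p = 0.0102). Pnpla2 was read at 51.7, 53.2, 54.2 and 56.6 CPM in itaconate and at 37.3, 43.8, 39.3 and 35.5 CPM in lipid + itaconate replicates A to D, with a log2 fold change of -0.47 (SE 0.075, edgeR adjusted p = 0.000133). Both were separate between the groups. Hilpda was also separate here, at 87.3, 109, 104 and 91.5 CPM in itaconate and 68.0, 84.9, 82.7 and 79.3 CPM in lipid + itaconate replicates A to D, with a log2 fold change of -0.31 (SE 0.069, edgeR adjusted p = 0.00179). Non-overlapping ranges were thus seen in 4 members, against 31.4% of all genes.

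G0s2 was read at 3.80, 3.99, 1.43 and 2.56 CPM in itaconate and at 5.83, 3.31, 3.14 and 4.26 CPM in lipid + itaconate replicates A to D. It was higher with lipid in 3 of 4 letters, the exception being replicate B. The log2 fold change was 0.54 (SE 0.17, edgeR adjusted p = 0.0172), and the call was lost without itaconate replicate C or D or without lipid + itaconate replicate A or D. Relative to Pnpla2, per kilobase, G0s2 was at 0.255, 0.260, 0.0913 and 0.157 in itaconate and at 0.541, 0.262, 0.278 and 0.417 in lipid + itaconate replicates A to D, so the ranges nearly met. Cidec was read at 3.87, 4.76, 3.38 and 4.14 CPM in itaconate and at 4.52, 7.15, 4.46 and 4.41 CPM in lipid + itaconate replicates A to D. Replicate B stood far above the other lipid + itaconate libraries. The log2 fold change was 0.33 (SE 0.13, edgeR adjusted p = 0.0487), and it was 0.23 and no longer passed without that library. The Cidec call passed in 7 of 23 alternative settings.

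Plin5, Cideb and Abhd5 did not pass with itaconate present. Their log2 differences were -0.18 (95% interval -0.44 to 0.08), 0.10 (-0.01 to 0.20) and -0.09 (-0.19 to 0.01). Without itaconate replicate D, the highest, that of Plin5 was -0.015. With the letter left out of the model 4 members passed, Plin2, Plin3, Plin4 and Pnpla2. Without lipid + itaconate replicate B 6 of these 7 members passed, the exception being Cidec, with log2 fold changes of -0.58 for Plin2, 0.22 for Plin3, -0.38 for Plin4, -0.31 for Hilpda, -0.53 for Pnpla2 and 0.73 for G0s2. Of the macrophage markers 1 was higher and 7 were lower with lipid here, of the hepatocyte markers 2 rose and 5 fell, and both cholangiocyte markers tested fell again.

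**Figure D3:**
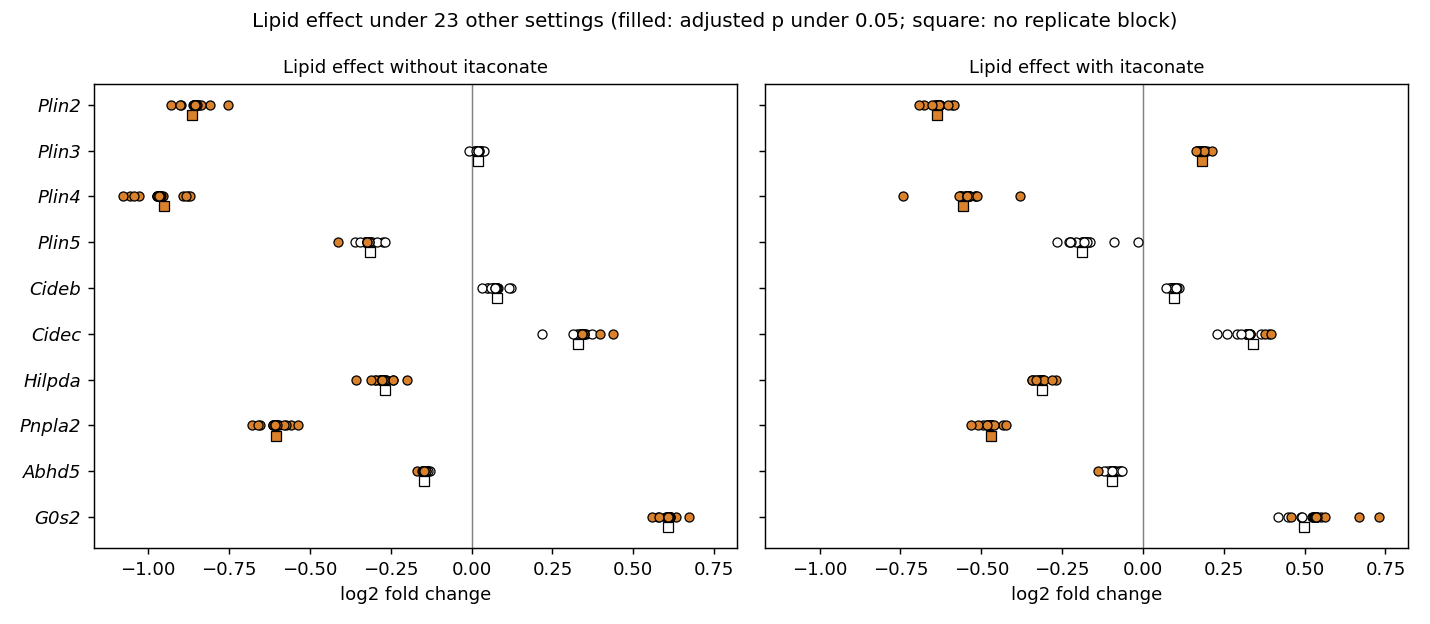
Log2 fold change with lipid of each member under the 23 alternative settings, without itaconate (left) and with itaconate (right). Filled symbols passed an adjusted p of 0.05 and squares are the model without the replicate letter. Plin2, Plin4 and Pnpla2 are filled throughout in both panels, and Plin5 in 10 of 23 settings on the left.

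Itaconate itself, at 10 mM, left none of the 10 members past the threshold in either comparison. Without lipid 0 of 10 members passed by edgeR, against 4.91% of all genes, and 1 had an unadjusted p under 0.05, Plin3, against 21.3% of all genes. By DESeq2 0 passed as well. Of the 8 macrophage markers 1 rose and 1 fell (Cd68 and Lyz2 were the 2 called), and no marker of the other 5 cell types passed. Their part in the values here was not tested, and on top of lipid no marker of the 6 cell types passed. In no member were the itaconate and untreated ranges separate, against 7.53% of all genes. Plin3 was lower with itaconate in 4 of 4 letters, with a mean of 124 ± 9.70 CPM against 135 ± 8.18 (SD, n = 4), a log2 difference of -0.13 (SE 0.040, edgeR adjusted p = 0.0872). Hilpda was higher in 4 of 4 letters, with a mean of 97.8 ± 10.1 CPM against 88.8 ± 12.2, a log2 difference of 0.14 (SE 0.069, edgeR adjusted p = 0.241). When the model was fitted to the untreated and itaconate libraries alone, these 2 genes passed, with adjusted p = 0.0226 and 0.0223, while over all settings their adjusted p ran up to 0.440 and 0.693.

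The intervals show what sizes remain possible for the others without lipid. The change of Plin2 with itaconate was -4.39%, with a 95% interval of -15.3% to 7.94%. That of Pnpla2 was 2.78%, with -7.88% to 14.7%. That of Abhd5 was 1.08%, with -5.68% to 8.34%. The rarer genes were less well bounded, with Plin4 at -14.5% (-31.6% to 6.90%), Cidec at -15.0% (-30.0% to 3.33%) and G0s2 at -13.5% (-33.1% to 11.7%). Plin5, also rare, was at 1.51% (-15.1% to 21.4%), and Cideb was at -4.00% (-10.9% to 3.47%).

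With lipid present 0 of 10 members passed by edgeR between lipid + itaconate and lipid, against 2.58% of all genes, and again 1 had an unadjusted p under 0.05, Pnpla2, against 17.3% of all genes. By DESeq2 the count was also 0, as it was without lipid + itaconate replicate B, where the log2 differences were 0.21 for Plin2, 0.37 for Plin4, 0.12 for Pnpla2 and -0.09 for G0s2 and 136 genes of all those tested passed, against 301 with it. No ranges were separate, against 5.82% of all genes. Pnpla2 was higher with itaconate in 4 of 4 letters, with a mean of 39.0 ± 3.55 CPM against 34.5 ± 3.68 (SD, n = 4), a log2 difference of 0.17 (SE 0.077, edgeR adjusted p = 0.255). Plin2 was higher in 3 of 4 letters, with a mean of 733 ± 64.6 CPM against 655 ± 68.2, a log2 difference of 0.16 (SE 0.083, edgeR adjusted p = 0.339) with a 95% interval of -0.02 to 0.33. Within letters its log2 ratio was 0.04, -0.06, 0.54 and 0.14 in A to D, the largest being that of C, and without lipid replicate C the difference was 0.06. Plin4 was at 0.20 (95% interval -0.14 to 0.55) and was 0.0022 without lipid + itaconate replicate C. G0s2 was lower with itaconate in 3 of 4 letters, with a log2 difference of -0.28 (95% interval -0.63 to 0.07). Cidec was also lower in 3 of 4 letters, at -0.25 (-0.52 to 0.02), and was -0.34 without lipid + itaconate replicate B. Over the 10 members the log2 difference was positive in 7 and negative in 3.

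The difference between the itaconate effects with and without lipid was tested as an interaction. No member passed, 1 gene of all those tested passed (0.00857%), and 1 member had an unadjusted p under 0.05, Plin3, against 8.6% of all genes. The interaction of Plin2 was 0.22 on the log2 scale (95% interval -0.02 to 0.47) and that of Plin4 was 0.43 (-0.04 to 0.90), both with edgeR adjusted p above 0.6, at 0.616 and 0.615. Without lipid replicate C the interaction of Plin2 was 0.12, and without lipid + itaconate replicate C that of Plin4 was 0.23. Without lipid + itaconate replicate B they were 0.27 and 0.58, and no member passed. The 4 comparisons share libraries, since each treatment enters 2 of them, and the interaction uses all 4 treatments. Members' values are therefore given side by side and not correlated between comparisons.

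**Figure D4:**
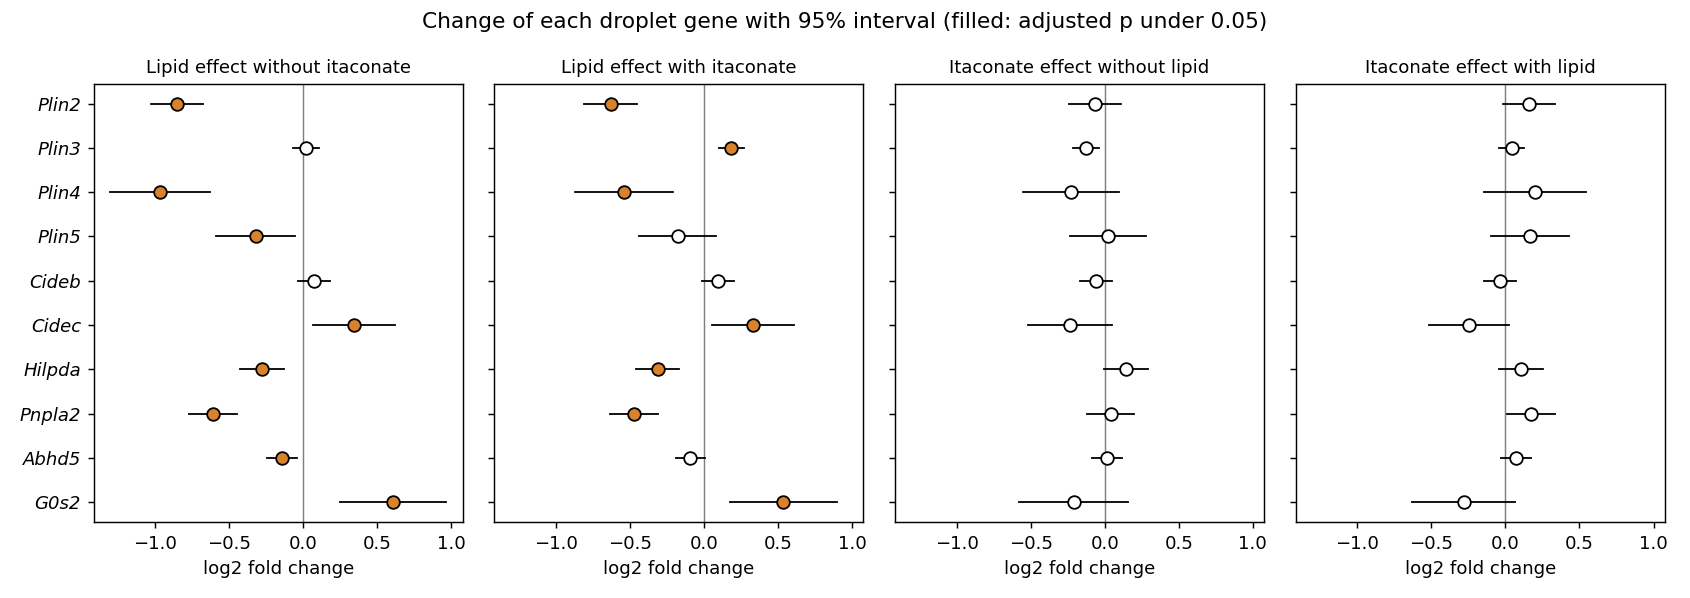
Log2 fold change of each member with its 95% interval in the 4 comparisons, filled where the adjusted p was under 0.05. The lipid panels hold 8 and 7 filled points, with Plin2 at -0.85 and -0.63, and the itaconate panels hold 0.

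Other genes of droplet and fatty acid metabolism were counted from lists chosen with earlier results of these data known. Counts above the share of all genes, here and in the comparisons below, are therefore no evidence of enrichment. With lipid alone 47.5% of all genes were called, 23.8% higher and 23.7% lower. In all 37 of the 60 tested genes of the lists passed (61.7%). Of 13 tested genes for droplet formation and coat outside the members, 4 rose and 3 fell with lipid alone, with Mettl7b, a droplet-associated methyltransferase, at a log2 fold change of 0.96, Ldah, a droplet hydrolase, at 0.19 and Aup1, a droplet protein of the ubiquitin pathway, at -0.22. Of 11 other neutral lipid hydrolases 2 rose and 4 fell, with Ddhd2 at 0.76, the lysosomal acid lipase Lipa at 0.29 and hormone-sensitive lipase Lipe at -0.46. Of 10 genes for making neutral lipid esters none rose and 6 fell, with the phosphatidate phosphatase Lpin1 at -0.91, the acyltransferase Agpat2 at -0.39 and Gpat4 at -0.28, and the median of that list was -0.24. All these named genes had an adjusted p under 0.05 by edgeR and kept it in all 23 alternative settings.

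Of 15 PPAR alpha targets outside the droplet 2 rose and 11 fell with lipid alone, with a median log2 fold change of -0.35 against -0.21 in the members. Pdk4, the kinase that shuts pyruvate dehydrogenase, was at -1.34 (SE 0.087, edgeR adjusted p = 1.58e-08), and Angptl4, a secreted inhibitor of lipoprotein lipase, at -1.02. Creb3l3, a liver transcription factor, rose, at 1.06. Of 11 HIF targets 1 rose and 4 fell, with Ndrg1 at -0.53, Kdm3a at -0.40 and Pdk1 at -0.27. Without the replicate letter the counts called were 5, 3, 5, 10 and 4 in the 5 lists, in the order given. Without untreated replicate C 3 HIF targets were called.

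With itaconate present, lipid raised 5 and lowered 4 of the droplet formation genes (Mettl7b 0.75, Ldah 0.28, Hsd17b13 0.15) and raised 2 and lowered 2 of the hydrolases (Ddhd2 0.54, Lipa 0.27, Aadac -0.33). It lowered 7 of the ester synthesis genes and raised none (Agpat2 -0.37, Lpin1 -0.65, Gpam -0.44). Of the PPAR alpha targets 1 rose and 12 fell (Creb3l3 0.95, Pdk4 -1.09, Angptl4 -0.85), and of the HIF targets none rose and 4 fell (Kdm3a -0.47, Ndrg1 -0.33, Pdk1 -0.24). Among all genes 47% were called here, which the 4 of 11 hydrolases and the 4 of 11 HIF targets did not reach. All values are log2 fold changes with an adjusted p under 0.05 by edgeR. Without the letter 5, 2, 6, 10 and 3 were called, and without lipid + itaconate replicate B the counts were 7 hydrolases and 8 HIF targets.

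With itaconate alone, 4 of the 60 tested genes of these lists passed (6.67%, against 4.91% of all genes), and with itaconate on top of lipid 5 of 60 passed (8.33%, against 2.58%). No droplet formation gene and no hydrolase was among the 4. Lpin3 fell by 0.42, Creb3l3 fell by 0.29, and the HIF targets Ankrd37 and Kdm3a rose by 0.63 and 0.28, all on the log2 scale. With itaconate on top of lipid, Mettl7b fell by 0.27, Ddhd2 fell by 0.32 and Creb3l3 fell by 0.40, while Pdk4 rose by 0.47 and Ndrg1 by 0.31 on the log2 scale. Without the replicate letter none of these itaconate calls passed. Several also depended on single libraries, and Lpin3 passed in 9 of 23 settings. Without any 1 of untreated replicates A, B, C or D or itaconate replicates A, C or D no HIF target was called with itaconate alone, and without any 1 of replicates A, B or D of the lipid or the lipid + itaconate cells no HIF target was called with itaconate on top of lipid.

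**Figure D5:**
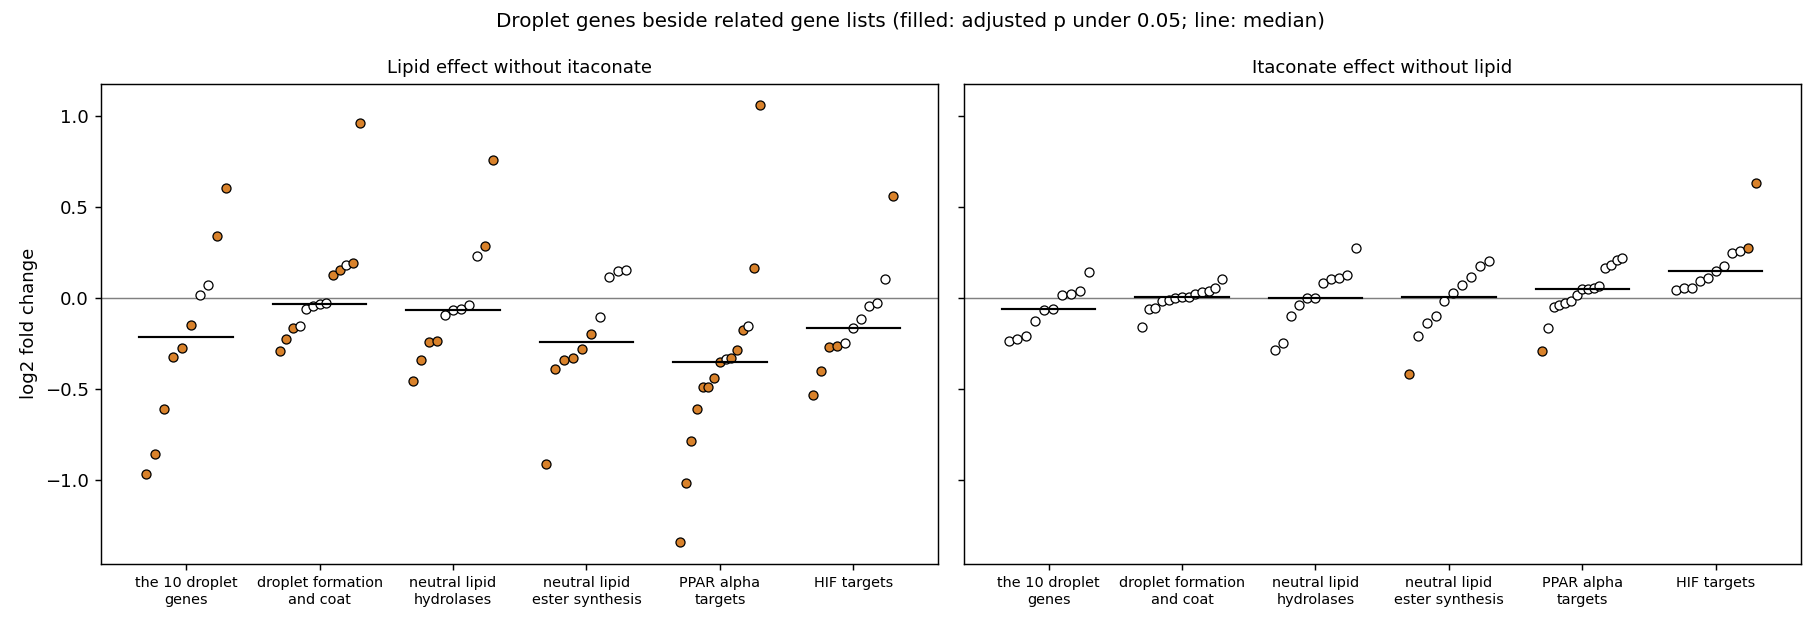
Log2 fold change of the 10 members and of the genes of the 5 lists with lipid alone (left) and with itaconate alone (right), 1 point per gene, filled where the adjusted p was under 0.05, with a line at the list median. With lipid alone the medians were -0.21 for the members and -0.35 for PPAR alpha targets, and with itaconate alone no member is filled.

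Across the 16 libraries, with the mean of each letter removed, the members followed Plin2 to different degrees. This is a description over libraries that share treatments and letters, and the lipid and non-lipid libraries of Plin2 form separate ranges, so no p is given. Pearson's r to Plin2 was 0.95 for Pnpla2 (Spearman's rho 0.90) and 0.93 for Plin4 (rho 0.94), which ranked at 126 and 300 among 11674 genes. It was 0.81 for Abhd5, 0.76 for Plin5 and 0.69 for Hilpda, and negative for Cideb (-0.45), Plin3 (-0.51), G0s2 (-0.73) and Cidec (-0.77). The genes most like Plin2 were Rnf10 (r = 0.992), Slc25a38 (0.988), Aco1 (0.985), Hnrnpl (0.985) and Zfyve26 (0.984). Each was lower with lipid, by 0.40 to 0.54 on the log2 scale, a direction that follows from choosing them by likeness to Plin2.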

How the data were processed

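Total RNA of cultured hepatocytes (RNA integrity number over 8) was captured as mRNA with a stranded kit and sequenced. Per the labels, the authors used bcl2fastq 2.20, Cutadapt 1.18, STAR 2.7.0f on mm10, Picard 2.18.26 and RSEM 1.3.1, and deposited expected counts per gene, not normalized, of which 5.41% were not whole. The GENCODE release is not given in the sources used here. All 55450 identifiers matched GENCODE M21, from which positions and exon lengths were taken. Estimates can shift reads between genes of shared sequence.

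The counts were rounded and tested with edgeR 4.0.16 in R 4.3.3 (TMM, quasi-likelihood, treatment plus letter, all 16 libraries, genes with a mean of 1 CPM or more, adjusted p threshold 0.05). The letter was kept because the 24 same-letter pairs of libraries deviated together (correlations 0.143 to 0.468, over the limit of 0.1), while other pairs ran from -0.435 to 0.178. No library was a copy of another of its group. Alternatives used limma 3.58.1 and DESeq2 1.42.0. The scripts were tested on simulated data. The members and gene lists were chosen with earlier results of these data known. Named genes were the members, Plin1, Cidea, up to 3 genes per list and comparison with the smallest p among those called, and the 5 genes most like Plin2.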

Additional observations from a re-analysis of the deposited data

Results flagged for a closer look

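Of 40 combinations of member and treatment, 1 had a library far from the other 3, and chance alone gives about 1 in 20. It was Cidec in lipid + itaconate cells, where replicate B stood at 7.15 CPM and the others at 4.41 to 4.52 CPM. The gap to the nearest library was 0.962 of the group's whole range. The same library stood apart over all genes. The Cidec values with and without it are given beside its lipid comparison above.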

How the results depend on the processing

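Each result was recomputed under 23 alternatives (22 for the interaction, which needs all 4 groups): no replicate block, another scaling (RLE), other low-count filters (filterByExpr or none), fitting only the libraries of the comparison, DESeq2, limma-trend, and leaving out each of the 16 libraries. No called member changed sign under any of them. With RLE the median log2 fold change of all genes stayed within 0.01 of 0. That scaling is set from median ratios over genes, so this value is no check on a shift of all genes. Leaving out the replicate block left 3 members called with lipid alone (of 8) and 4 with lipid and itaconate (of 7); the cause was not tested. Fitting only the libraries of the comparison gave 2 members for itaconate without lipid; the cause was not tested. Without 1 library the member counts ran from 5 to 8 with lipid alone (lowest without untreated replicate C or D) and from 5 to 7 with itaconate present (lowest without itaconate replicate C or D), and stayed at 0 for both itaconate comparisons and the interaction. Over all genes, the counts for itaconate without lipid were 573 in the model used, 23 with no block and 1859 with only the libraries compared, and with lipid 301, 9 and 891 at most (without lipid + itaconate replicate C). Without 1 library they ran from 149 to 1051 and from 59 to 891. For the interaction, 1 gene became up to 231 with no filter. Uncalled values that changed sign were small. The interaction of Cidec was 0.013 with no block. Without 1 library, itaconate without lipid ran from -0.15 to 0.11 for Plin5, from -0.030 to 0.091 for Pnpla2 and from -0.0082 to 0.045 for Abhd5; itaconate with lipid ran from -0.077 to 0.0069 for Cideb; lipid without itaconate ran from -0.0069 to 0.040 for Plin3; and the interaction ran from -0.023 to 0.065 for Cideb, from -0.11 to 0.11 for Cidec, from -0.11 to 0.045 for Hilpda and from -0.19 to 0.12 for G0s2. G0s2, the member with the fewest counts (not the lowest per kilobase), rests on 38 to 205 counts per library, which limits its precision.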
